A study of Mus musculus with 6 samples.

Results

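The genes described here are 9 that build and receive fast inhibitory signals in the spinal cord, chosen by name from the 28162 genes of the deposited table. They are the GABA-synthesizing enzymes Gad1 and Gad2, the vesicular carrier Slc32a1, the glycine carrier Slc6a5, the glycine receptor subunits Glra1, Glra2, Glra3 and Glrb, and the receptor scaffold Gphn. All 9 were found in the table and all 9 passed the filter on low values. The tissue was ventral lumbar spinal cord of SOD1G93A mice, whose mutant superoxide dismutase 1 transgene makes them a model of amyotrophic lateral sclerosis. An adeno-associated virus had been given intrathecally on postnatal day 74, and the cord was taken on day 104. For 3 samples the virus was AAV-NDNF, which delivers the neuron-derived neurotrophic factor NDNF. For the other 3 it was AAV-GFP, the control that delivers green fluorescent protein. Both groups thus carried the transgene and a virus, and no animal without either is among the samples analysed here. The sources used here state neither the promoter of the vectors, nor the cells they reached, nor the sex of the animals.

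Inhibitory neurons make GABA from glutamate with glutamate decarboxylase, whose isoforms GAD67 and GAD65 are encoded by Gad1 and Gad2. In the cord many of them release glycine as well, which they take up from outside with the plasma membrane carrier GlyT2 (Slc6a5). Both transmitters enter synaptic vesicles through the same carrier, VGAT (Slc32a1). Glycine receptors are chloride channels made of an alpha subunit (Glra1, Glra2 or Glra3) and the beta subunit Glrb, through which gephyrin (Gphn) anchors them at the synapse. Glra1 is the alpha subunit of adult motor circuits, Glra2 is prominent before birth, and Glra3 is known from the superficial dorsal horn, where it takes part in inflammatory pain.

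The 6 libraries held between 15335789 and 20060987 reads assigned to genes, and the members between 42 (Glra3) and 11085 (Slc6a5) reads in a library. Levels below are normalized read counts, in which 1 read is worth 0.841 to 1.13 depending on the library, and log2 fold changes, taken on log2(value + 1), are positive where AAV-NDNF libraries were higher. Ndnf itself stood at 5286, 7077 and 673.7 normalized counts in AAV-NDNF replicates 1 to 3, against 171.4, 128 and 158.1 in AAV-GFP replicates 1 to 3, so the third AAV-NDNF library had far less of it than the others. Motor neuron genes were present in all 6 libraries; Chat, the enzyme that makes acetylcholine, stood at 815.8, 855.9 and 677 in the AAV-NDNF libraries and at 662.4, 876.6 and 678.3 in the AAV-GFP libraries. Genes of excitatory and peptide neurons of the dorsal horn, called the dorsal horn list below, were present too. Of 12 such genes listed, 11 passed the filter, and the sum of all 12 was 1036 to 1460 normalized counts in AAV-NDNF libraries and 586.4 to 1689 in AAV-GFP libraries.

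None of the 9 genes was called different between the groups in limma over all 17480 genes tested (Benjamini-Hochberg adjusted p = 0.997 for each). That test called 0% of all genes, and 818 genes (4.68%) had an unadjusted p under 0.05, none of them a member. Ndnf, the delivered gene, was not called either, at a log2 fold change of 4.27 and a limma adjusted p of 0.53. A gene that this test does not call is thus not shown to be unchanged. edgeR's quasi-likelihood test called 0 genes as well, with 808 at an unadjusted p under 0.05, among them Glrb (0.0496). The authors' deposited table, from DESeq2, calls 0.266% of the genes to which it gives an adjusted p, and none of the 9 is among them. In that table Glrb has the smallest unadjusted p of the 9, at 0.0365, with a log2 fold change of 0.28. The median log2 fold change of the 9 genes was 0.19, where the median over all genes tested was 0.00. Of the 9, 8 had an estimate above 0, and over all genes tested 50.2% did. Without AAV-GFP replicate 2 the median of the 9 was −0.01. In bulk tissue, fewer cells of a type and less RNA per cell cannot be told apart.

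**Figure D1:**
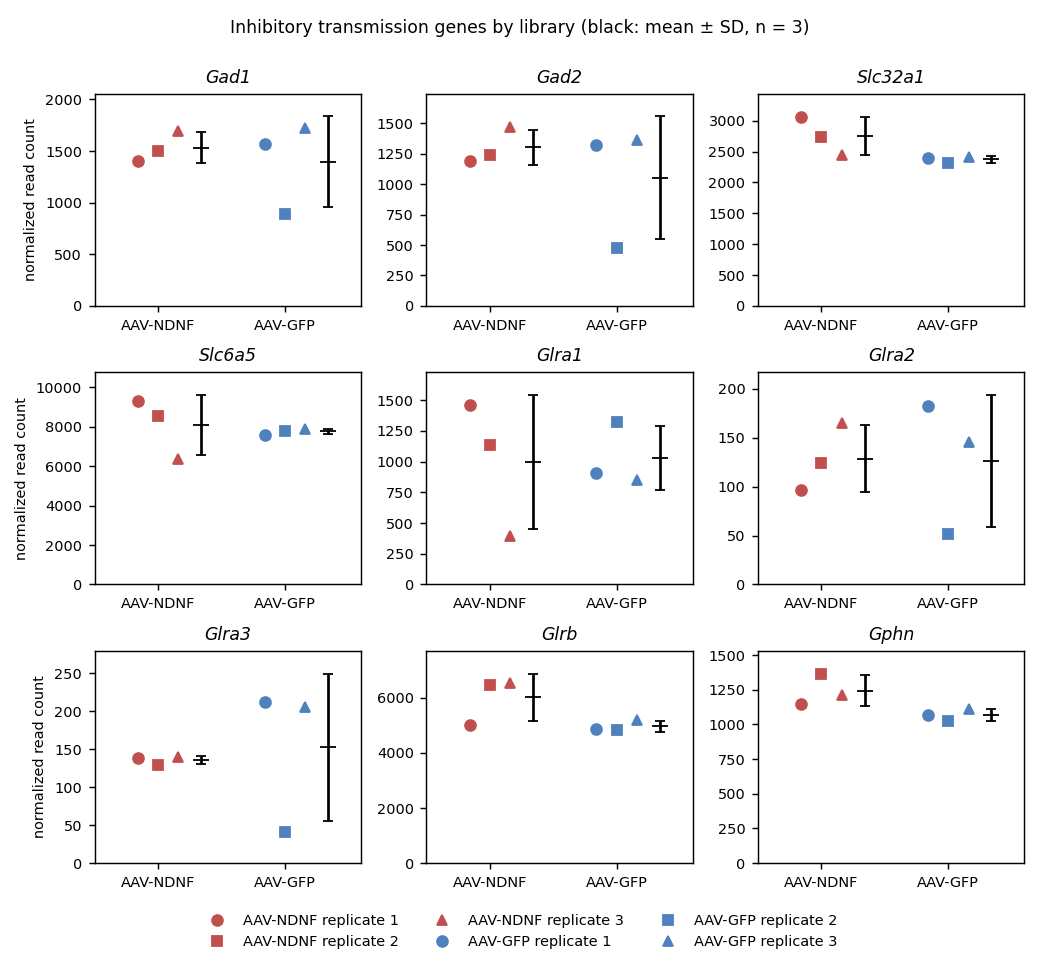
Normalized read count (vertical axes, from 0) of the 9 genes in each AAV-NDNF and AAV-GFP library; each point is 1 library, its shape gives the replicate number, and the black bar is the mean ± SD (n = 3). Slc32a1 and Gphn are the panels in which the groups do not overlap, and AAV-GFP replicate 2 lies far below the other libraries for Gad2, Glra2 and Glra3.

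Slc32a1 (mm10 chromosome 2, 158610767 to 158615748, plus strand) had slightly higher values in every AAV-NDNF library. VGAT mRNA stood at 3067, 2743 and 2444 normalized counts in AAV-NDNF replicates 1 to 3, against 2402, 2312 and 2419 in AAV-GFP replicates 1 to 3. The groups did not overlap, but AAV-NDNF replicate 3 lay just above the highest control. The log2 fold change was 0.20 (SE 0.11), with a 95% interval of −0.05 to 0.45. Leaving out AAV-GFP replicate 2 gave 0.18, and leaving out AAV-NDNF replicate 3 gave 0.29. An antisense gene, Gm14205, overlaps Slc32a1 and stood at 867.1, 684.7 and 578.4 in the AAV-NDNF libraries and at 795.4, 776 and 782.9 in the AAV-GFP libraries. No source used here states whether the authors counted by strand, so reads of the pair cannot be told apart.

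Gphn, the gephyrin gene (chromosome 12, 78226379 to 78684772, plus strand), also had higher values in every AAV-NDNF library. Its values were 1147, 1366 and 1214 normalized counts after AAV-NDNF, against 1066, 1023 and 1109 after AAV-GFP. The log2 fold change was 0.22 (SE 0.11; 95% interval −0.03 to 0.46) and stayed between 0.15 and 0.27 when any 1 library was left out. Gm48226, which starts from the opposite strand at Gphn, was 117.8, 167.8 and 154.5 against 168.7, 127 and 129.2. Gephyrin binds the beta subunit, and Glrb (chromosome 3, 80843599 to 80913660, minus strand) showed a similar difference. Glrb mRNA was 5018, 6481 and 6555 in AAV-NDNF libraries, against 4864, 4850 and 5191 in AAV-GFP libraries. The first AAV-NDNF library lay inside the range of the controls and the other 2 above it. The log2 fold change of Glrb was 0.27 (SE 0.12; 95% interval −0.01 to 0.54). Among the 9 genes, 2 thus had higher values with no overlap, Slc32a1 and Gphn, and over all genes tested 4.26% did. An exact two-sided permutation test gives p = 0.1, the smallest that 3 against 3 libraries allow, whenever the groups do not overlap. It therefore adds nothing to the lack of overlap by which these 2 genes were picked out. The same test gave 0.2 for Glrb and larger values for the other members.

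The glycine carrier Slc6a5 (chromosome 7, 49910146 to 49963856, plus strand) had the highest mean count of the 9 genes, and its estimated difference between the groups was small. It stood at 9323, 8541 and 6366 normalized counts in AAV-NDNF libraries, against 7608, 7767 and 7908 in AAV-GFP libraries. The AAV-NDNF libraries lay on both sides of the controls, with replicate 3 lowest of all 6. The log2 fold change was 0.04 (SE 0.14; 95% interval −0.27 to 0.35), and without AAV-NDNF replicate 3 it was 0.20 (SE 0.09). Slc6a5 marks glycinergic neurons and Slc32a1 serves both transmitters. Their ratio within a library, like any such ratio, does not depend on scaling between libraries. The exonic lengths differ, 7203 bases for Slc6a5 and 2797 for Slc32a1, and the part of transcript length in the ratio was not tested. Slc6a5 had 3.04, 3.11 and 2.61 times the counts of Slc32a1 in AAV-NDNF libraries and 3.17, 3.36 and 3.27 times in AAV-GFP libraries. The ratio was lower in each AAV-NDNF library than in each control, by a mean of 0.17 on the log2 scale (exact two-sided permutation p = 0.1, adjusted over 3 ratios 0.3). With 3 libraries a group this test cannot pass 0.05.

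Gad1 (70553072 to 70602014) and Gad2 (22622205 to 22693874), both on the plus strand of chromosome 2, varied most through 1 control library. Gad1 stood at 1399.5, 1500.1 and 1697 normalized counts in AAV-NDNF libraries, against 1569, 893.2 and 1719.7 in AAV-GFP libraries. Gad2 stood at 1193, 1243 and 1469 in AAV-NDNF libraries, against 1320.4, 474 and 1366 in AAV-GFP libraries. The low value in each gene was AAV-GFP replicate 2, while the other 2 controls lay within the AAV-NDNF range for Gad2 and within or just above it for Gad1. The log2 fold change was 0.19 (SE 0.21) for Gad1 and 0.45 (SE 0.39) for Gad2. Without AAV-GFP replicate 2 these became −0.11 (SE 0.13) and −0.05 (SE 0.13), so both estimates changed sign. The 95% interval for Gad2 narrowed from −0.46 to 1.35 with all libraries to −0.34 to 0.24 without that one. Gad2 had 0.852, 0.829 and 0.866 times the counts of Gad1 in AAV-NDNF libraries and 0.841, 0.531 and 0.794 times in AAV-GFP libraries, so in AAV-GFP replicate 2 Gad2 was low even relative to Gad1. The antisense gene Gad1os stayed at or under 5.63 normalized counts in all 6 libraries.

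The alpha subunits Glra2 (chromosome X, 165129017 to 165327393, minus strand) and Glra3 (chromosome 8, 55940460 to 56130070, plus strand) followed the same library. Glra2 stood at 96.7, 123.9 and 165.4 normalized counts in AAV-NDNF libraries, against 182.1, 51.8 and 145.3 in AAV-GFP libraries. Glra3 stood at 138.8, 129.5 and 139.1 in AAV-NDNF libraries, against 211.6, 41.0 and 205.1 in AAV-GFP libraries. The AAV-NDNF libraries of Glra3 were almost equal, and the controls lay on both sides of them. AAV-GFP replicate 2 had 0.197 times the mean of the other 2 controls for Glra3, 0.316 times for Glra2, 0.353 times for Gad2 and 0.543 times for Gad1. It rests on 42 reads for Glra3 and 53 for Glra2, so counting error is a larger part of these values than of the others. For Glra3 the log2 fold change was 0.16 (SE 0.55) with all libraries, although the ratio of the group means was 0.89. Without AAV-GFP replicate 2 it was −0.61 (SE 0.19; 95% interval −1.03 to −0.20), with an unadjusted p of 0.00848 and a limma adjusted p of 0.553. That fit called 0.246% of all genes, and no member. For Glra2 the change without that library was −0.37 (SE 0.26), in place of 0.17 (SE 0.40).

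The 4 genes that dropped together in that library are shown by their promoters, which RefSeq places in the GRCm38.p6 build as 250 bases before and 50 after the annotated start. Capitals mark matches on either strand to TATAAA, the element bound by the general factor TBP, to GGGCGG, the core of Sp1 sites, to TGACGTCA, the cyclic AMP response element, or to TAATTA, a homeodomain core. No matches of different motifs overlap here.
Gad1 (chr2:70561879-70562178, plus strand): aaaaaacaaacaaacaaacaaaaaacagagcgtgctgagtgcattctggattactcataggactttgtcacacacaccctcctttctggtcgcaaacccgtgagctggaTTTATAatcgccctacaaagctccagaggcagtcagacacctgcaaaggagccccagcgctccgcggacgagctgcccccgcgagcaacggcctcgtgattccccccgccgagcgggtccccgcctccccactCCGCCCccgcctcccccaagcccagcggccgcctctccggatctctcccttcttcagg
Gad2 (chr2:22622077-22622376, plus strand): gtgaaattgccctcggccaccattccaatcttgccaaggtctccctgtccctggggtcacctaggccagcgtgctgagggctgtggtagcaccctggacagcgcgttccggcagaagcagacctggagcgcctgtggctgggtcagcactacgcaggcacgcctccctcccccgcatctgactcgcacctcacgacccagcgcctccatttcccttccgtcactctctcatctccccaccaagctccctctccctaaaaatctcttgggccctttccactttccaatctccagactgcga
Glra2 (chrX:165327344-165327643, minus strand): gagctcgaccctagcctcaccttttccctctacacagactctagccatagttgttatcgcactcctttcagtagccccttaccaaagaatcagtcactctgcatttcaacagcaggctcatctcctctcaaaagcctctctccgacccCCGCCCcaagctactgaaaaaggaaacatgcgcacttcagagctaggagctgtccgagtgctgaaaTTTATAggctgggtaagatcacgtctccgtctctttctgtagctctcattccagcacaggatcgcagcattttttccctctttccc
Glra3 (chr8:55940168-55940467, plus strand): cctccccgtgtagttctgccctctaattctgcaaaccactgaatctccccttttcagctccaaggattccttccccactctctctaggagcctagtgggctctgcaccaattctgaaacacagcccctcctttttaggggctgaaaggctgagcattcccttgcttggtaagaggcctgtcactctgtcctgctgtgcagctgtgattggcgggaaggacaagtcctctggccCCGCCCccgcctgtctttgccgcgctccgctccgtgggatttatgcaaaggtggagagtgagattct
Gad1 and Glra2 held a TATAAA, as did 13.6% of 32851 promoters searched. Gad1, Glra2 and Glra3 held a GGGCGG, against 35.7% of all promoters. Glrb and Gphn, outside these 4 genes, held it too, so it was found in 5 of the 8 members with a promoter. The Gad1 window lies inside the GENCODE gene span given above, not at its first base (70553072). None of the 4 held TGACGTCA (1.79% of all) or TAATTA (5.29% of all), and the Gad2 window held none of the 4 motifs. A match describes these letters only.

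Glra1 (chromosome 11, 55514238 to 55608198, minus strand), the alpha subunit of adult motor circuits, had the widest spread within the AAV-NDNF group as a ratio of the highest to the lowest library. It stood at 1460.1, 1134 and 397.6 normalized counts in AAV-NDNF libraries, against 904.3, 1326 and 851.3 in AAV-GFP libraries. AAV-NDNF replicate 3 was lowest of the 6, at 0.307 times the mean of the other 2 AAV-NDNF libraries, and AAV-NDNF replicate 1 was highest. AAV-GFP replicate 2, low for the other alpha subunits, was the highest control for Glra1, at 1.51 times the mean of the other 2. The log2 fold change was −0.21 (SE 0.48; 95% interval −1.37 to 0.95), and without AAV-NDNF replicate 3 it was 0.35 (SE 0.20). Glra1 had 0.291, 0.175 and 0.0607 times the counts of Glrb in AAV-NDNF libraries and 0.186, 0.273 and 0.164 times in AAV-GFP libraries. That ratio differed by −0.48 on the log2 scale (exact two-sided permutation p = 0.8, adjusted over 3 ratios 0.8). Gm12236, an antisense gene within Glra1, stood at 111, 61.9 and 39.4 in AAV-NDNF libraries and at 76.8, 123.1 and 61.95 in AAV-GFP libraries. Its lowest value, like that of Glra1, was in AAV-NDNF replicate 3.

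**Figure D2:**
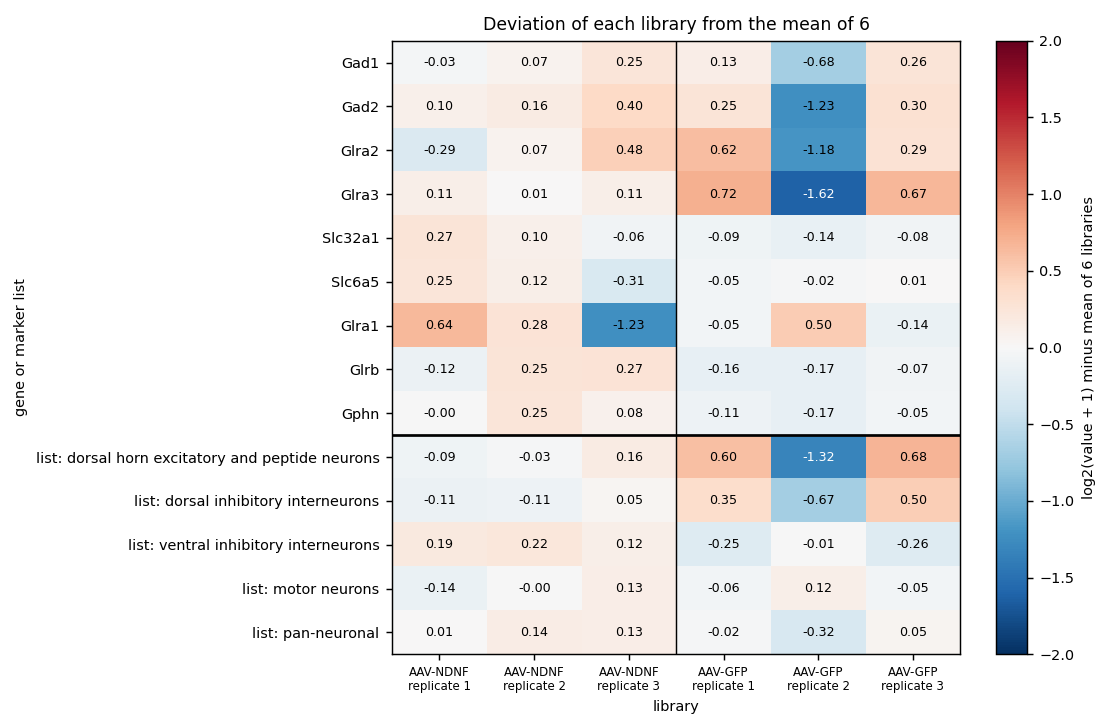
Deviation of each library (columns) from the mean of all 6 libraries on the log2(value + 1) scale, for the 9 genes and, below the line, for the mean of 5 marker lists. AAV-GFP replicate 2 is low for Gad1, Gad2, Glra2, Glra3 and the dorsal horn list, and AAV-NDNF replicate 3 is low for Glra1 (−1.23) and Slc6a5 (−0.31).

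Markers of excitatory and peptide neurons of the dorsal horn moved with the first of these patterns. Relative to the mean of the 6 libraries, the dorsal horn list stood at −0.09, −0.03 and 0.16 on the log2 scale in AAV-NDNF libraries and at 0.60, −1.32 and 0.68 in AAV-GFP libraries. AAV-GFP replicate 2 was lowest for 9 of its 11 tested genes. Sst (somatostatin) was 218.7, 330 and 468.8 normalized counts in AAV-NDNF libraries and 444.6, 113.4 and 475.3 in AAV-GFP libraries, and Tac1, which encodes substance P, was 63.9, 102.5 and 63.5 against 191.9, 19.6 and 209.4. The list of dorsal inhibitory interneurons (5 of 5 genes tested) stood at −0.11, −0.11 and 0.05 in AAV-NDNF libraries and at 0.35, −0.67 and 0.50 in AAV-GFP libraries, but AAV-GFP replicate 2 was lowest for only 2 of its 5 genes. The summed counts of that list were 1115 to 1426 in AAV-NDNF libraries and 1196 to 1350 in AAV-GFP libraries, with the lowest in AAV-NDNF replicate 3. Motor neuron genes stood at −0.14, −0.004 and 0.13 in AAV-NDNF libraries and at −0.06, 0.12 and −0.05 in AAV-GFP libraries. With the dorsal horn list as a covariate the SE fell to 0.10 for Gad1, 0.10 for Gad2, 0.22 for Glra2 and 0.19 for Glra3. Their log2 fold changes in that fit were 0.18, 0.43, 0.15 and 0.13, and the smallest limma adjusted p of the 9 genes was 0.288, for Gad2. The score of the list averaged nearly the same in both groups. The covariate could therefore hardly move the estimates from 0.19, 0.45, 0.17 and 0.16, those of the fit without it. The covariate fit and the omission of AAV-GFP replicate 2 thus gave Gad2 estimates of unlike sign. Without that library the 2 remaining controls had higher scores on the dorsal horn list than all 3 AAV-NDNF libraries. The part of dorsal horn content in the Gad1, Gad2, Glra2 and Glra3 values was not tested further. AAV-GFP replicate 2 was also the lowest library for 7 of 10 pan-neuronal genes. It had the highest summed oligodendrocyte and astrocyte markers, 712700 and 219500 normalized counts, against at most 577700 and 174400 in the other 5 libraries.

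AAV-GFP replicate 2 was the lowest library for 7 of the 9 genes, where it was lowest for 20.2% of all genes tested. AAV-NDNF replicate 3 was lowest for the other 2, Slc6a5 and Glra1, where it was lowest for 26.3% of all genes. Across the 6 libraries, Gad2, Glra1, Glra2 and Glra3 varied 3.10-fold, 3.67-fold, 3.52-fold and 5.16-fold between the lowest and the highest, and the other 5 varied 1.33-fold to 1.93-fold. A range above 3-fold was found in 1.13% of the 12410 genes with a mean of at least 100 normalized counts. In AAV-NDNF replicate 3, genes with long annotated exons (6339 bases or more) had a median deviation 0.30 lower on the log2 scale than genes with short ones (up to 2339 bases). The same difference was 0.19 and 0.06 in the other 2 AAV-NDNF libraries and −0.06, 0.05 and −0.01 in the AAV-GFP libraries. Slc6a5 has 7203 exonic bases and Glra1 has 2414; the part of transcript length in their low values was not tested.

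**Figure D3:**
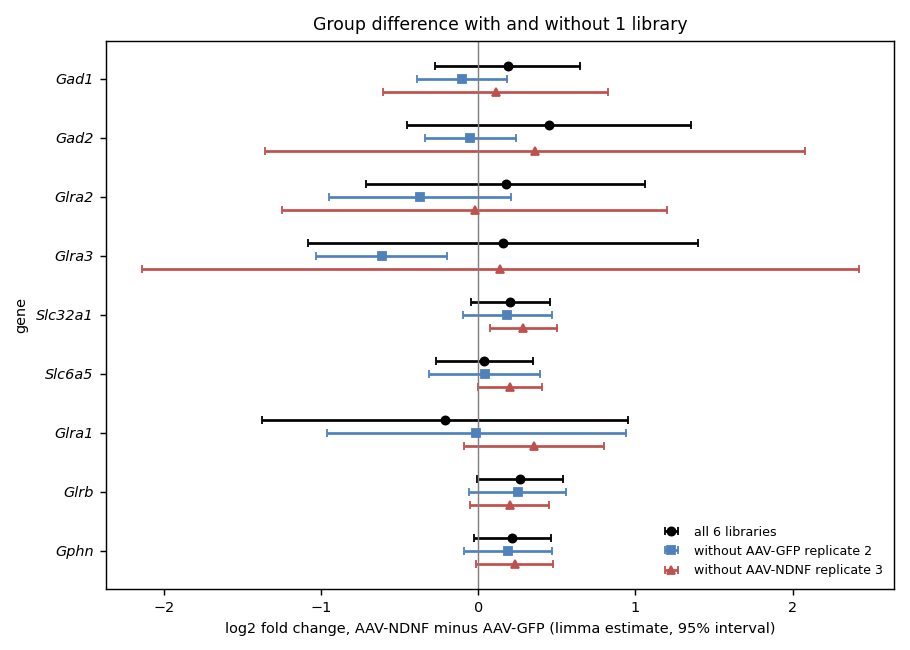
Log2 fold change of each gene, AAV-NDNF minus AAV-GFP, as estimated by limma (horizontal axis; bars are 95% intervals), with all 6 libraries and with either AAV-GFP replicate 2 or AAV-NDNF replicate 3 left out. The estimates of Slc32a1, Slc6a5, Glrb and Gphn stay above 0 in all 3 fits, although their intervals with all libraries include 0. Those of Gad1, Gad2, Glra2 and Glra3 fall below 0 without AAV-GFP replicate 2, and that of Glra2 also without AAV-NDNF replicate 3 (−0.02).

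Levels can be compared between genes only per length of transcript. Per kilobase of exonic sequence annotated in GENCODE M21, the normalized count averaged 1180 for Glrb, 1099 for Slc6a5, 917 for Slc32a1, 419.3 for Glra1, 307.9 for Gphn, 200.4 for Gad2, 191.5 for Gad1, 40.5 for Glra2 and 15.7 for Glra3 over the 6 libraries. Glrb was above Slc6a5 in 3 of 6 libraries, so that pair has no settled order. Gad2 was above Gad1 and Glra1 above Gphn in 5 of 6 libraries, and every other neighbouring pair kept its order in 6 of 6. Among the alpha subunits, Glra1 thus had the most transcript and Glra3 the least in this tissue. Exonic length pools all annotated isoforms and makes levels of genes with rare long exons too small. No stretch of 50 bases is shared between annotated transcripts of Gad1 and Gad2, or between any 2 of the 4 glycine receptor subunits, so reads of that length or longer do not match 2 of these genes exactly.

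GABA-A receptor subunits, the GABA-gated chloride channels open to the same ions, were listed with 19 genes, of which 18 were in the table and 15 passed the filter. None of the 15 passed limma over all genes in either direction. Their median log2 fold change was 0.13, and single estimates ranged from −0.95 for Gabrd to 0.53 for Gabrq. Without AAV-GFP replicate 2 the median was −0.15, and that library was the lowest for 8 of the 15. Gabra3, an alpha subunit, was 1490.4, 1722 and 1742 normalized counts in AAV-NDNF libraries and 1676, 1089 and 1793 in AAV-GFP libraries. Per kilobase Gabra3 was highest (404), followed by Gabra5 (299.1), another alpha subunit. Gabrr2, a rho subunit chosen here after its values were seen, was the 1 subunit with no overlap, at 19.3, 24.8 and 23.0 in AAV-NDNF libraries and 34.8, 38.1 and 34.2 in AAV-GFP libraries. Its log2 fold change was −0.66 (SE 0.34; limma adjusted p = 0.997), and groups with lower values and no overlap made up 5.5% of all genes tested.

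The GABA-B receptor is a G-protein coupled receptor of 2 subunits, and neither passed the test. Gabbr1 was 9714, 9286 and 8134 normalized counts in AAV-NDNF libraries and 8739.9, 9095 and 8899.6 in AAV-GFP libraries, with a log2 fold change of 0.02 (SE 0.11). Gabbr2 was 2190.1, 2062 and 1432 against 1716, 1545 and 1989, with a log2 fold change of 0.10 (SE 0.16). In both genes AAV-NDNF replicate 3 was the lowest of the 6 libraries.

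Genes that clear or break down the transmitters did not pass the test either. Of 10 listed, 9 were tested, 4 had estimates above 0 and 5 below, and the median log2 fold change was −0.03. Slc6a9, the glial glycine carrier GlyT1, was 6398, 5728 and 4903 normalized counts in AAV-NDNF libraries and 5412, 7070.5 and 5112 in AAV-GFP libraries. Slc6a11, the GABA carrier GAT-3 of astrocytes, was 8638, 8092 and 6634 against 7058, 6997 and 7056, and Abat, the enzyme that degrades GABA, was 10757, 10226 and 8173 against 9842, 10231 and 9710.3. AAV-NDNF replicate 3 was the lowest library for all 3 of these genes, and for 5 of the 9 tested.

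The scaffold that holds inhibitory receptors was represented by 8 tested genes, of which none passed, 3 had estimates above 0 and 5 below, and the median was −0.02. Iqsec3 was 4675, 3670.3 and 2612.5 normalized counts in AAV-NDNF libraries and 3657, 3572 and 3576 in AAV-GFP libraries. The chloride gradient on which inhibition rests is set by cotransporters, and none of the 5 tested passed. Slc12a5, the neuronal chloride extruder KCC2, was 9992, 9011 and 7579 against 8803, 8305 and 8527 (log2 fold change 0.04, SE 0.12; 95% interval −0.22 to 0.31). Slc12a2, the chloride importer NKCC1, was 4576, 4359.6 and 4038 against 3618, 4708 and 3893 (log2 fold change 0.09, SE 0.12).

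Excitatory receptor genes are given for comparison. Of 11 AMPA and NMDA receptor subunits tested, none passed and the median log2 fold change was 0.13, against 0.19 for the 9 inhibitory genes. Without AAV-GFP replicate 2 the medians were −0.0021 and −0.01, and that library was lowest for 6 of the 11. Grin1, the obligatory NMDA receptor subunit, was 4946, 4471 and 3942 normalized counts in AAV-NDNF libraries and 4199, 3375 and 4444 in AAV-GFP libraries, and Gria4, an AMPA receptor subunit, was 2753, 3028 and 2866 against 2658, 2472 and 2776. Slc17a6, the vesicular glutamate carrier of excitatory cord neurons, was 2407, 2952 and 2975 against 2741, 1851 and 2950.2. Motor neuron genes had a median of 0.02 over 10 tested, with 5 above and 5 below 0. Whether the inhibitory genes differed from these lists was not tested.

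The genes whose pattern over the 6 libraries was most like the mean of the 9 were sought among 12401 others with at least 100 normalized counts on average. They were Doc2a, Hoxa11os, Scn2b, Coq6, Slc6a7 and Syt13, with Pearson correlations of 0.996, 0.995, 0.994, 0.993, 0.990 and 0.990. That mean pattern was 0.10, 0.15 and −0.001 in AAV-NDNF libraries and 0.14, −0.52 and 0.13 in AAV-GFP libraries, so the likeness rests on a low AAV-GFP replicate 2. Scn2b, a sodium channel subunit, was 1146, 1204 and 1076 normalized counts in AAV-NDNF libraries and 1189, 638.2 and 1270.0 in AAV-GFP libraries. Hoxa11os, an antisense RNA of the Hoxa cluster, was 125.3, 136.3 and 89.8 against 126.8, 20.5 and 110.02. The genes most like Gad2 alone, sought after its values were seen, were Armc8, Itih3, Cntn6 and Tmem130 (0.997 to 0.995), and those most like Glra1 alone were R3hdm2, Kndc1, Arhgap35 and Tnrc6b (0.999 to 0.996). With 6 libraries and so many candidates, correlations of this size describe these libraries only.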

How the data were processed

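Polyadenylated RNA was sequenced on an Illumina instrument, per the labels. The tools listed in the submitters' processing notes, with no version, are HTSeq, HISAT2, cutadapt and DESeq2, and the build is mm10. The authors deposited a normalized signal, gene read counts divided by 1 size factor per library; 100% of values were whole multiples of 1 read (tolerance 0.001), so reads could be recovered. They also deposited log2 fold changes, the Wald score and p-values, per the file headers. Groups and replicates follow the sample titles. The labels call the samples biological replicates, and nothing more is given on their origin.

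The test was limma (trend, robust) on log2(normalized count + 1), two-sided, over the 17480 genes that reached 10 normalized counts in 3 or more libraries, with Benjamini-Hochberg adjustment over all genes and a threshold of 0.05. SE and 95% intervals come from that fit. Members, lists and tests were chosen with earlier results of these data known. Named were the 9 members, the 2 genes of highest mean in each pathway list and any called, 5 genes fixed by name, and the 6 of most similar pattern. Sst, Tac1, the extremes of a list, the genes most like Gad2 or Glra1 alone and those marked so in the text were chosen after their values were seen. Some genes that this rule names are not reported here. No group reaches 4 libraries, so single outlying libraries were not tested. Scripts were tested on simulated counts. GENCODE M21 gave positions and lengths for 98.1% of symbols. The software comprised DESeq2 1.42.0, edgeR 4.0.16, limma 3.58.1 (all in R 4.3.3) and matplotlib 3.10.9. Alternatives were TMM and upper quartile scaling, no filter, a pseudocount of 5, edgeR, DESeq2 and limma-voom on recovered reads, a replicate block, a dorsal horn covariate and leaving out each library.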

Additional observations from a re-analysis of the deposited data

How the results depend on the processing

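Limma-voom with quality weights gave 2424 of 17480 genes an unadjusted p under 0.05, among them Glrb (0.0026), Gphn (0.0081) and Slc32a1 (0.029). DESeq2 gave 774 of 17480 genes an unadjusted p under 0.05, among them Glrb (0.039). Limma with no filter gave 1242 of 28162, again with Glrb (0.045). Without AAV-NDNF replicate 1 limma gave 1535, with Glrb (0.0037) and Gphn (0.042). It gave 1150 without AAV-NDNF replicate 3, with Slc32a1 (0.013), and 821 without AAV-GFP replicate 2, with Glra3 (0.0085). With the dorsal horn covariate limma gave 974 genes an unadjusted p under 0.05, among them Gad2 (0.0017), whose estimate that covariate could hardly move. No alternative called any of the 9 genes after adjustment. Of their 81 log2 fold changes under the 9 alternatives that keep all libraries, 6 changed sign. In limma-voom with quality weights Gad1 was −0.0323, Glra1 0.19, Glra2 −0.31 and Glra3 −0.43, and Glra3 was −0.17 in edgeR and −0.17 in DESeq2. The fits with no filter and with the replicate block leave each estimate as it was by construction, so part of the 81 could not change. Of the other named genes, limma-voom turned Abat (0.0261), Iqsec3 (0.019), Slc6a9 (0.0689) and Syt13 (−0.0131), and Iqsec3 was 0.0158 in edgeR and 0.0209 in DESeq2. The causes were not tested. The count of called genes, 0 in limma, was 3 with no filter, 55 in DESeq2, 167 in limma-voom and 4 with the dorsal horn covariate. It was 0 to 43 when 1 library was left out, with 43 without AAV-GFP replicate 2, 11 without AAV-NDNF replicate 3 and 1 without AAV-NDNF replicate 1. With the replicate block it was 6, but no source used here says whether the replicate numbers pair the samples. Correlations of same-numbered deviations were −0.09 to 0.08, and 1 of 3 AAV-NDNF libraries correlated best with its own number. With 3 libraries a group these values cannot settle whether samples were paired.

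Leaving out 1 library gave these ranges of log2 fold changes: Gad1 −0.11 to 0.37, Gad2 −0.0511 to 0.71, Slc6a5 −0.0736 to 0.20, Glra1 −0.58 to 0.35, Glra2 −0.37 to 0.53 and Glra3 −0.61 to 0.55, all of which cross 0, against 0.12 to 0.29 for Slc32a1, 0.20 to 0.39 for Glrb and 0.15 to 0.27 for Gphn. The log2 ratio of Glra1 over Glrb differed by −0.98 to 0.15, and the median of the 9 genes was −0.01 to 0.30. Other named genes that crossed 0 were Gabra3 (−0.0736 to 0.29), Gabbr1 (−0.036 to 0.092), Gabbr2 (−0.0186 to 0.29), Abat (−0.12 to 0.0796), Iqsec3 (−0.22 to 0.20), Slc12a5 (−0.0478 to 0.15), Slc6a9 (−0.13 to 0.10), Pvalb (−0.0178 to 0.44), Slc17a6 (−0.0404 to 0.30), Doc2a (−0.044 to 0.45), Hoxa11os (−0.0338 to 1.25), Scn2b (−0.11 to 0.39), Coq6 (−0.0018 to 0.13), Slc6a7 (−0.18 to 0.57) and Syt13 (−0.16 to 0.36).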

Other observations

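Markers of ventral inhibitory interneurons had mostly higher values after AAV-NDNF, though none passed limma over all genes. Of 10 listed and tested, 9 had estimates above 0, with a median log2 fold change of 0.29, and 2 had higher values with no overlap between groups, as did 4.26% of all genes tested. Pan-neuronal genes had estimates above 0 in 10 of 10, with a median of 0.16. The 2 ventral genes with no overlap, named after their values were seen, encode transcription factors. En1, which marks V1 interneurons, was 65.6, 82.2 and 71.2 normalized counts in AAV-NDNF libraries and 59.8, 48.9 and 38.5 in AAV-GFP libraries (log2 fold change 0.58, SE 0.27). Gata3, which marks V2b interneurons, was 26.1, 24.8 and 29.6 against 4.46, 20.5 and 13.9 (1.20, SE 0.54; limma adjusted p = 0.997), and both rest on few reads. The score of the list did not overlap between groups, at 0.19, 0.22 and 0.12 in AAV-NDNF libraries and −0.25, −0.01 and −0.26 in AAV-GFP libraries. Other lists were scored as well, no share over all genes can be set beside a list score, and this one was not tested. Within the list, Calb1 had an estimate below 0 (−0.09), and Chrna2 was highest in AAV-GFP replicate 2 (209.1 normalized counts). Pvalb, a calcium-binding protein of some inhibitory and sensory neurons, was 1047, 1213 and 1988 against 1127, 1136 and 1161.

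Gephyrin also completes the molybdenum cofactor, the metal carrier of a few oxidizing enzymes, and genes of that pathway were looked at beside it. None of 6 passed, and the median log2 fold change was −0.13. Mocs2, a cofactor synthesis gene, was 776.3, 1006 and 1141 normalized counts in AAV-NDNF libraries and 986.5, 757.4 and 904.7 in AAV-GFP libraries. Suox, the sulfite oxidase that depends on the cofactor, was 337.3, 287.2 and 269.5 against 273.2, 388 and 329. Xdh (xanthine dehydrogenase), named after its values were seen, was 240.5, 212.9 and 96.4 against 349.1, 231.6 and 362.1 (−0.85, SE 0.31; limma adjusted p = 0.944).

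Microglial markers, which belong to no inhibitory neuron, had estimates below 0 in all 8 genes tested, though none passed limma over all genes (smallest adjusted p = 0.364). Of the 8, 6 had lower values with no overlap, as did 5.5% of all genes tested. Astrocyte markers also had estimates below 0 in 8 of 8, with a median of −0.13. AAV-GFP replicate 2 was the highest library for 6 of these 8 genes. Without that library the median was −0.09, and Slc1a2 (0.02) and S100b (0.13) had estimates above 0. The microglial sum was 12950 to 15390 normalized counts in AAV-NDNF libraries and 18090 to 19490 in AAV-GFP libraries. The pan-neuronal score overlapped between groups, at 0.01, 0.14 and 0.13 in AAV-NDNF libraries and −0.02, −0.32 and 0.05 in AAV-GFP libraries. Of its 10 genes, 1 had higher values with no overlap, as did 4.26% of all genes tested. The part of neuronal RNA content in the higher Slc32a1, Gphn and Glrb values was not tested.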
